A study of Mus musculus with 8 samples.

Results

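Ddah1 and Dock9 are the genes by which a pair of regions of lost H3K27 acetylation are named here, one on mouse chromosome 3 and one on chromosome 14. H3K27ac, the acetylation of lysine 27 of histone H3 found at active enhancers and promoters, was measured by CUT&RUN, in which an antibody guides a nuclease to release the DNA that carries the mark. The members were all peaks of the deposited table that overlapped, by at least 1 bp, the mm9 windows of chromosome 3 from 145.39 to 145.62 Mb (Ddah1) and chromosome 14 from 121.90 to 122.25 Mb (Dock9). There were 19 of them among 22731 peaks, 10 at Ddah1 and 9 at Dock9, and all 19 lay wholly inside their window. Both regions were selected from the comparison described below, as regions with less acetylation in the knockout. Every difference between the groups at these peaks is therefore given as a description, with no test.

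The knockout organoids were mouse colon cancer organoids of the genotype labelled Gata6KO_AKP, and their controls were AKP organoids. The labels do not spell out what AKP stands for, and all libraries share this background. C57Bl6 is given for all samples as the recipient mouse strain. Each group had 3 H3K27ac libraries, prepared from 500000 dissociated cells each, with 5495414 to 6196455 reads in peaks in the Gata6KO libraries and 5141856 to 7026388 in the Control libraries. The H3K4me3 and the IgG library of the series, 1 of each and both from control organoids, were not analysed here, so that no background was subtracted. How GATA6 was removed, whether the organoids were 1 clone and whether replicates came from separate cultures were not stated in the sources at hand.

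GATA6 is a zinc-finger transcription factor of endodermal epithelia, including that of the gut, and binds DNA at sites with a GATA core. DDAH1 is an enzyme that breaks down asymmetric dimethylarginine, a natural inhibitor of the nitric oxide synthases, and so bears on how much nitric oxide a cell can make. DOCK9, also called zizimin 1, is a guanine nucleotide exchange factor that loads the small GTPase CDC42 with GTP, and CDC42 governs actin protrusions and the polarity of epithelial cells. The deposited table names no genes and follows mm9, while the gene table used here describes GRCm38.p6, so that peaks could not be assigned to a promoter, an exon or an intron, nor other genes of the nitric oxide or CDC42 pathways to peaks. That the windows lie over the bodies of Ddah1 and Dock9 was thus taken from the definition of the windows and was not checked. In the order of GRCm38.p6, the protein-coding neighbours of Ddah1 are Ccn1, which encodes a secreted matricellular protein, and Bcl10, which encodes an adaptor of NF-kB signalling. Those of Dock9 are Slc15a1, which encodes the intestinal peptide transporter PEPT1, and Ubac2.

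The sequences just before the transcription starts of both genes are shown because GATA6 binds DNA directly and because they show how unlike these starts are. They come from RefSeq on GRCm38.p6 and comprise the 250 bases before each start, in the direction of transcription, with each CG dinucleotide in capitals. RefSeq's table lists 1 start for Ddah1 (chromosome 3, plus strand) and 3 for Dock9 (chromosome 14, minus strand), numbered here along the gene from the most upstream.
Ddah1 start 1: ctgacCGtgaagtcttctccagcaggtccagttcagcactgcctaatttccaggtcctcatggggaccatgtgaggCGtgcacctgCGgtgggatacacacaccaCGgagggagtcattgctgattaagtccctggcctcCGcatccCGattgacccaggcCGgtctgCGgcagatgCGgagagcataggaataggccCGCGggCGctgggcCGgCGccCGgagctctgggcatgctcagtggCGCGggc
Dock9 start 1: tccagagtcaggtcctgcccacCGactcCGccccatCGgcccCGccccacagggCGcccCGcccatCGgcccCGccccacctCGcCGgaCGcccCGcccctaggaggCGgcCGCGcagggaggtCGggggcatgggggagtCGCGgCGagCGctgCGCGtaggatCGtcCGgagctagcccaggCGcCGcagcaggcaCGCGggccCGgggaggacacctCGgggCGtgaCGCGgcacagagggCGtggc
Dock9 start 2: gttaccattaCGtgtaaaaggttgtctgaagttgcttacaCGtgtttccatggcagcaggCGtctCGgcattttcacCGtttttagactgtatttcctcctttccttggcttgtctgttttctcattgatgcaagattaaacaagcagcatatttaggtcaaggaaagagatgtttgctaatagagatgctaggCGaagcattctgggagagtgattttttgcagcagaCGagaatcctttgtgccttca
Dock9 start 3: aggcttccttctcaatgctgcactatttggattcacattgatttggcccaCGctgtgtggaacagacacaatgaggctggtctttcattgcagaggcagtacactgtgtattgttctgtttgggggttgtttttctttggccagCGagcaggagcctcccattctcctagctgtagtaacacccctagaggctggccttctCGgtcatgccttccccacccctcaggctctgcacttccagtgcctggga

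The Ddah1 sequence held 17 CG dinucleotides and 64.0% G or C. The most upstream Dock9 start held 34 CG dinucleotides, more than 96.5% of the 32851 sequences of this length in the table, whose median was 6. The other Dock9 starts held 7 and 3. The letters GATA, searched on both strands, occurred once before the Ddah1 start and not before the 3 Dock9 starts, and 53.6% of all such sequences hold them. Neither AGATAA nor TGATAA, longer forms that contain GATA, was found on either strand of the 4 sequences, and 16.6% of all sequences hold one of them. These counts describe the letters in these windows alone, and whether a peak covers one of these starts could not be read across the builds.

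Over the whole Ddah1 locus, acetylation in the knockout was 44.0% lower. The levels of its 10 peaks, in counts per 1000000 reads in peaks (CPM) with TMM scaling, summed to 165, 162.5 and 155 CPM in Gata6KO replicates 1 to 3, against 271, 295 and 294 CPM in Control replicates 1 to 3. All Gata6KO sums lay below all Control sums. The means were 161 ± 5.25 CPM in Gata6KO and 287 ± 13.5 CPM in Control libraries (SD, n = 3 each), a log2 ratio of -0.84.

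At the Dock9 locus the difference was nearly the same, 43.5% lower in the knockout. Its 9 peaks summed to 159.5, 176 and 158 CPM in Gata6KO replicates 1 to 3, against 297, 306 and 270.0 CPM in Control replicates 1 to 3. Here too the groups did not overlap. The means were 164 ± 10.0 CPM in Gata6KO and 291 ± 18.9 CPM in Control libraries (SD, n = 3 each), a log2 ratio of -0.82. The log2 ratio of the Ddah1 sum to the Dock9 sum within each library averaged -0.03 ± 0.08 in Gata6KO and -0.02 ± 0.13 in Control libraries (SD, n = 3 each), so the 2 loci differed from each other by less than the spread between libraries. In organoids measured in bulk, fewer cells carrying the mark and less of the mark per cell cannot be told apart.

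**Figure D1:**
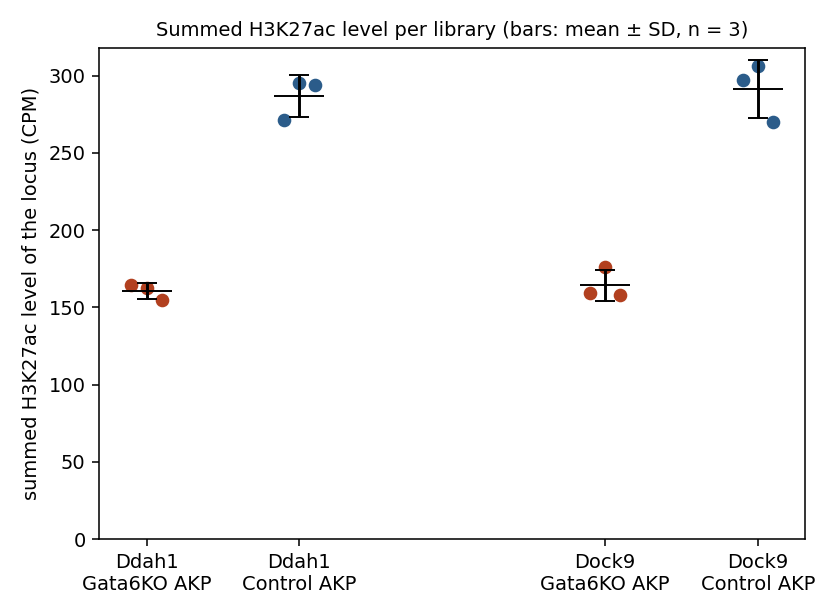
Summed H3K27ac level of the 10 Ddah1 and 9 Dock9 peaks in CPM (y axis) for each library (points), with the mean and SD of each group (bars, n = 3), Gata6KO AKP in red and Control AKP in blue. At both loci the Gata6KO libraries lie at 155 to 176 CPM and the Control libraries at 270.0 to 306 CPM.

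The sums were also taken without 1 peak. Since the regions were chosen for their lower acetylation, sums that stay lower are no further support. Only the size of the difference is described. Without the peak with the highest mean level, the Ddah1 sums averaged 131 ± 5.58 CPM in Gata6KO and 232 ± 10.8 CPM in Control libraries, with a log2 ratio of -0.82. Without its peak of the largest fold decrease, the Ddah1 log2 ratio was -0.78. At Dock9 1 peak had both the highest level and the largest fold decrease, and without it the sums averaged 136 ± 6.53 CPM in Gata6KO and 224 ± 16.7 CPM in Control libraries, with a log2 ratio of -0.72.

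Peak by peak, edgeR's quasi-likelihood test over all 22731 peaks called 9 of the 10 Ddah1 peaks and 8 of the 9 Dock9 peaks lower in the knockout at a Benjamini-Hochberg adjusted p under 0.05, against 10.2% of all peaks called lower. None of the 19 was called higher, as 11.6% of all peaks were. The 3 Gata6KO libraries lay below the 3 Control libraries at 9 Ddah1 and 8 Dock9 peaks, against 16.2% of all peaks. Since the regions were chosen by the same comparison, nothing is read from these counts. The median log2 fold change was -0.86 over the Ddah1 peaks and -0.75 over the Dock9 peaks, against -0.0081 over all peaks of the table. The medians of all peaks on chromosomes 3 and 14 were 0.016 and 0.012. Of the 19 peaks, 16 lay in the lowest 5% of log2 fold changes, and 6 had a fitted log2 fold change of -1 or below, as 0.405% of all peaks did.

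**Figure D2:**
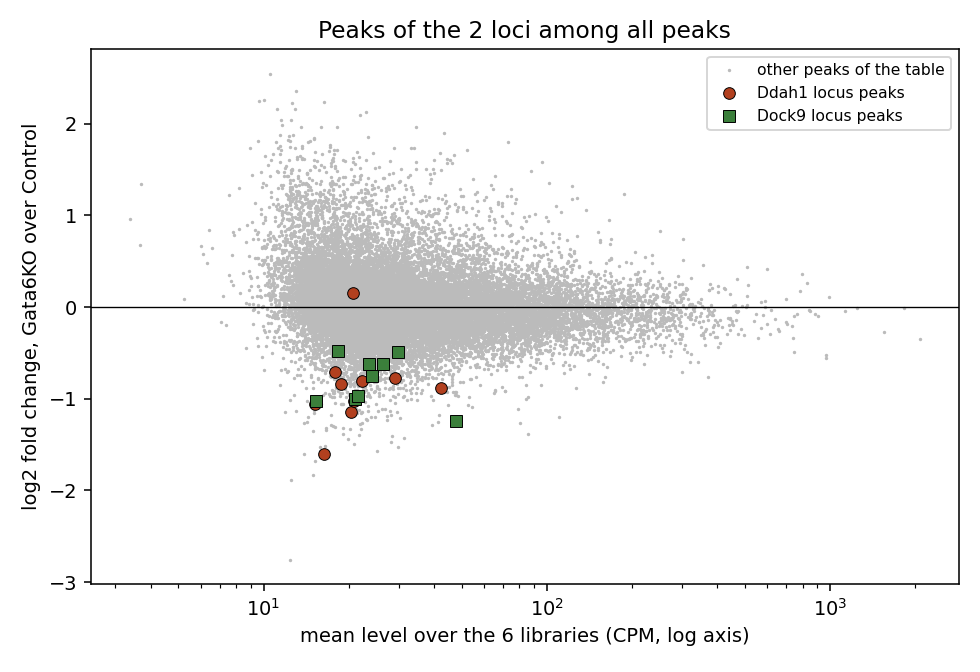
Log2 fold change of Gata6KO over Control (y axis) against mean level over the 6 libraries in CPM (log x axis) for all 22731 peaks (grey), with the Ddah1 peaks as red circles and the Dock9 peaks as green squares. The members lie at mean levels of 15.2 to 47.8 CPM. Except for the last Ddah1 peak at 0.16, their log2 fold changes lie between -1.60 and -0.48.

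At Ddah1, the peak at the low-coordinate end of the locus had the largest fold decrease. This peak, on chromosome 3 from 145421197 to 145422765, held 8.01, 7.98 and 8.18 CPM in Gata6KO replicates 1 to 3, against 24.4, 27.7 and 21.8 CPM in Control replicates 1 to 3. The Gata6KO libraries were nearly equal and the groups lay far apart, with a log2 fold change of -1.60 ± 0.25 (SE). The lowest count of this peak was 44, with a counting error of 21.3% if reads are taken as pairs. The closeness of the Gata6KO libraries is therefore not read as precision. The ratio of the mean levels was 3.05-fold. In Control libraries it was among the more densely acetylated peaks per length, at 15.7 CPM per kb, above 89.7% of all peaks, whereas in Gata6KO libraries it held 5.13 CPM per kb.

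The peak with the highest level at Ddah1 lay 115 kb further along, from 145535838 to 145540495, and was also the widest of the locus, at 4658 bp. It held 30.6, 28.1 and 30.1 CPM in Gata6KO replicates 1 to 3, against 48.0, 66.6 and 50.1 CPM in Control replicates 1 to 3. The groups did not overlap, although Control replicate 2 stood above the other Control libraries, and the log2 fold change was -0.88 ± 0.14 (SE). The second strongest, from 145451978 to 145454300, held 21.2, 24.7 and 18.6 CPM in Gata6KO libraries, against 37.6, 38.2 and 34.7 CPM in Control libraries. Its log2 fold change was -0.78 ± 0.16 (SE), and at 9.26 CPM per kb it kept the most acetylation per length in the knockout among the 9 peaks called lower.

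The next 3 peaks described at Ddah1 were of middling level. That from 145435127 to 145438258 held 20.9, 12.0 and 15.7 CPM in Gata6KO replicates 1 to 3, against 25.0, 27.7 and 32.4 CPM in Control replicates 1 to 3 (log2 fold change -0.81 ± 0.19, SE). Its highest Gata6KO value, in replicate 1, lay below its lowest Control value. The peak from 145515432 to 145517857, near the middle of the locus, held 11.1, 11.1 and 15.7 CPM in Gata6KO libraries, against 28.2, 25.1 and 30.6 CPM in Control libraries. With a log2 fold change of -1.14 ± 0.20 (SE), it had the second largest decrease of the locus. The peak from 145551466 to 145553835 held 11.8, 16.0 and 13.5 CPM in Gata6KO libraries, against 29.9, 27.9 and 26.4 CPM in Control libraries, with no overlap and a log2 fold change of -1.03 ± 0.20 (SE).

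The remaining Ddah1 peaks called lower were weaker and followed the same pattern. The peak from 145470693 to 145473159 averaged 13.5 ± 0.278 CPM in Gata6KO and 24.0 ± 3.41 CPM in Control libraries (SD, n = 3 each), and that from 145548332 to 145550196 averaged 9.89 ± 1.65 CPM in Gata6KO and 20.6 ± 2.91 CPM in Control libraries. Their log2 fold changes were -0.83 ± 0.21 and -1.06 ± 0.26 (SE). The peak from 145557990 to 145560409 averaged 13.6 ± 2.62 CPM in Gata6KO and 22.0 ± 5.99 CPM in Control libraries, and its log2 fold change of -0.71 ± 0.22 (SE) was the smallest decrease among the 9. Its call rested on single libraries: it was lost without Gata6KO replicate 3, at -0.55, and without Control replicate 3, at -0.45.

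The last peak at the high-coordinate end of the Ddah1 window, from 145575611 to 145577395, was the exception. It held 21.2, 23.6 and 20.8 CPM in Gata6KO replicates 1 to 3, against 21.9, 17.9 and 18.9 CPM in Control replicates 1 to 3. The groups overlapped, and the log2 fold change of 0.16 ± 0.20 (SE) lay within 1 standard error of 0. This peak begins 15.2 kb after the end of the preceding one. Its share of the summed acetylation of the locus was 13.6% in Gata6KO and 6.82% in Control libraries, since its neighbours fell. Without it, the sums of the other 9 peaks averaged 139 ± 4.79 CPM in Gata6KO and 267 ± 15.6 CPM in Control libraries, a log2 ratio of -0.95.

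**Figure D3:**
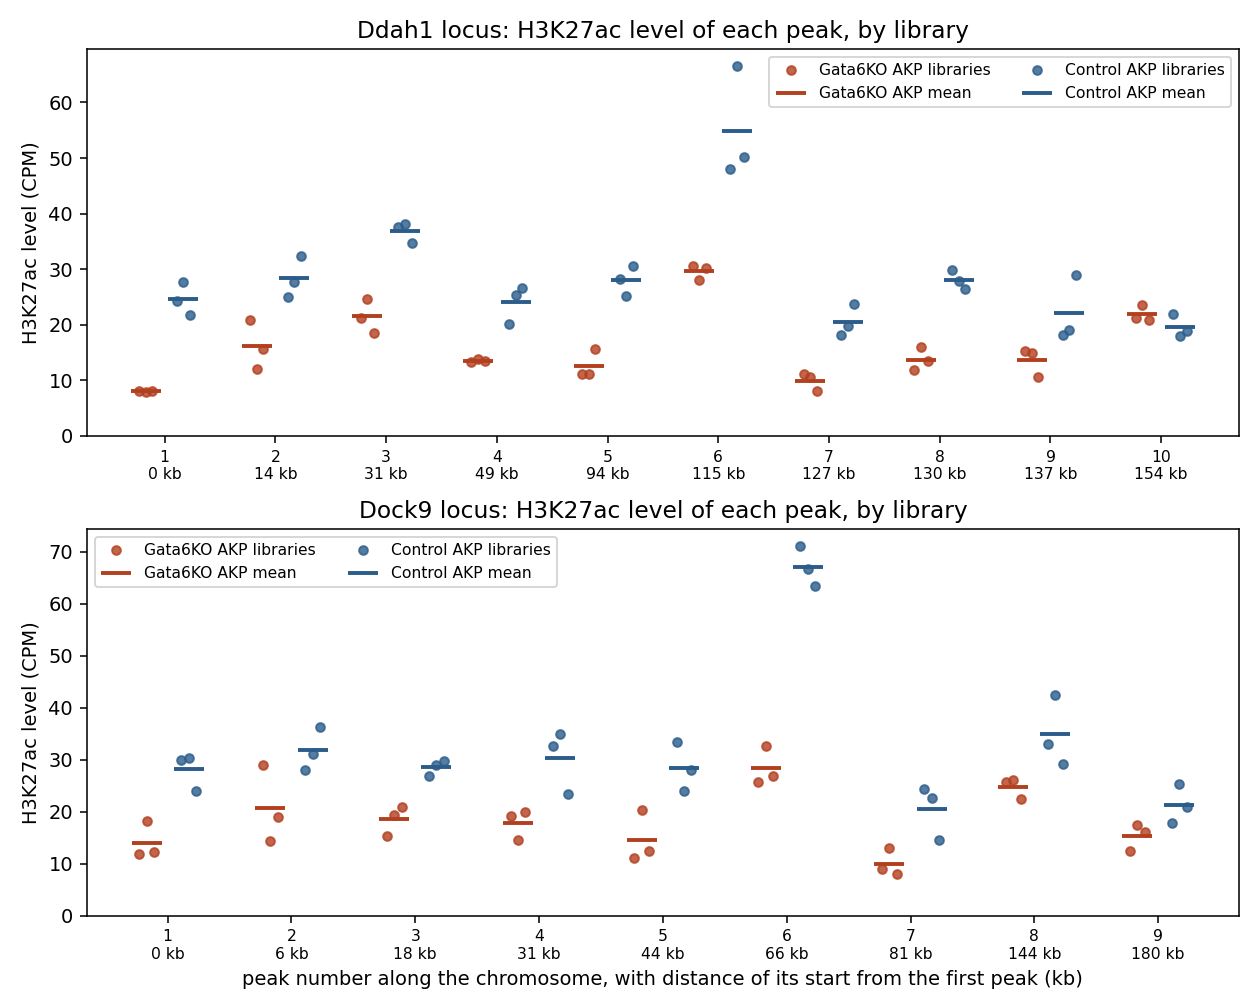
H3K27ac level in CPM (y axis) of each peak at Ddah1 (top) and Dock9 (bottom), in order along the chromosome with the distance of each from the first peak in kb (x axis). Points are libraries and bars are means of 3, Gata6KO AKP in red and Control AKP in blue. The groups overlap at the tenth Ddah1 peak and the second Dock9 peak, and are separate at the other 17.

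At Dock9 the largest decrease was at the strongest peak, inside the locus rather than at an end. This peak, on chromosome 14 from 122081737 to 122087165, was also the widest, at 5429 bp. It held 25.8, 32.7 and 26.94 CPM in Gata6KO replicates 1 to 3, against 71.1, 66.6 and 63.4 CPM in Control replicates 1 to 3. The highest Gata6KO library lay far below the lowest Control library, and the log2 fold change was -1.24 ± 0.13 (SE), with mean levels 2.36-fold apart. Its share of the acetylation of the locus was 17.3% in Gata6KO and 23.0% in Control libraries, so the peak that dominated the control profile stood out less in the knockout. Its neighbour from 122097162 to 122098722, the narrowest of the locus, held 9.05, 13.1 and 8.02 CPM in Gata6KO libraries, against 24.4, 22.6 and 14.6 CPM in Control libraries. The gap between the groups was narrow there, because Control replicate 3 was low, and the log2 fold change was -1.03 ± 0.26 (SE). Without Control replicate 1 it was -0.88 and no longer called.

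At the low-coordinate end of Dock9, 1 peak was uneven between Gata6KO libraries. The peak from 122022343 to 122025967 held 29.1, 14.3 and 18.9 CPM in Gata6KO replicates 1 to 3, against 28.0, 31.2 and 36.4 CPM in Control replicates 1 to 3. Gata6KO replicate 1 lay above Control replicate 1, so this peak was called lower (log2 fold change -0.62 ± 0.17, SE) although its groups overlapped. The call was lost without Gata6KO replicate 2, at -0.42, and without Control replicate 3, at -0.51. The peak from 122047327 to 122049749 held 19.2, 14.5 and 19.9 CPM in Gata6KO libraries, against 32.7, 34.9 and 23.5 CPM in Control libraries (log2 fold change -0.75 ± 0.18, SE). It kept 7.37 CPM per kb in the knockout, the most of the Dock9 peaks.

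The 3 other peaks in that stretch were called lower with separate groups. The first of the locus, from 122015876 to 122018332, averaged 14.1 ± 3.54 CPM in Gata6KO and 28.1 ± 3.52 CPM in Control libraries, with a fitted log2 fold change of -0.9995. The peak from 122033906 to 122037224 averaged 18.5 ± 2.87 CPM in Gata6KO and 28.6 ± 1.46 CPM in Control libraries, and that from 122059538 to 122062049 averaged 14.7 ± 4.95 CPM in Gata6KO and 28.5 ± 4.73 CPM in Control libraries (SD, n = 3 each). Their log2 fold changes were -0.62 ± 0.18 and -0.96 ± 0.19 (SE).

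The 2 peaks at the high-coordinate end of Dock9, set apart from the others by a gap of 61.3 kb, had the log2 fold changes nearest to 0. The peak from 122160052 to 122163938 held 25.8, 26.1 and 22.4 CPM in Gata6KO replicates 1 to 3, against 33.0, 42.5 and 29.2 CPM in Control replicates 1 to 3, with a log2 fold change of -0.49 ± 0.16 (SE). It was no longer called without Gata6KO replicate 3, at -0.42, or without Control replicate 2, at -0.33. The last, from 122195572 to 122198014, held 12.4, 17.4 and 16.0 CPM in Gata6KO libraries, against 17.7, 25.3 and 20.9 CPM in Control libraries. It was not called, with a log2 fold change of -0.48 ± 0.22 (SE), although every Gata6KO library lay below every Control library.

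By the medians of width and of acetylation per length in Control libraries, the members were near the whole table. Their widths had a median of 2395 bp at Ddah1 and 2512 bp at Dock9, against 2690 bp over all peaks. Of the 10 Ddah1 peaks, 8 were narrower than the median of all peaks, as were 5 of the 9 Dock9 peaks. Acetylation per length in Control libraries had a median of 11.3 CPM per kb at both loci, against 10.8 CPM per kb over all peaks. Single members ranged from percentile 27.3 to 90.3 of the table at Ddah1 and from 22.1 to 75.6 at Dock9. No member lay in the lowest 5% of the table. In Gata6KO libraries the medians were 5.54 CPM per kb at Ddah1 and 5.83 CPM per kb at Dock9, against 10.7 CPM per kb over all peaks. Then 8 of the 10 Ddah1 and 8 of the 9 Dock9 peaks lay in the lowest 5% of the table, below 6.99 CPM per kb. The exceptions were the second strongest and the last Ddah1 peak and 1 peak of Dock9, that from 122047327 to 122049749. Low levels in Gata6KO libraries follow from the choice of the regions by their decrease. The same choice disfavours low levels in Control libraries. Nothing is therefore read from the counts in the lowest 5% of either group.

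Log2 mean levels in Gata6KO and Control libraries correlated across peaks at Pearson's r = 0.627 at Ddah1 (10 peaks) and 0.846 at Dock9 (9 peaks). The peaks share their libraries and are not independent. Their levels were not divided by width, which is the same in both groups. Thus r does not show how far acetylation per length was kept. Spearman's rho of the log2 fold change with the Control level of a peak was -0.152 at Ddah1 and 0.033 at Dock9. With the width of a peak, rho was 0.103 at Ddah1 and 0.067 at Dock9. The Control level is itself part of the fold change, and the regions were chosen by their decrease. Neither a relation nor the lack of one is therefore read from these values. At Ddah1, rho with position was 0.418, and at Dock9 it was 0.25. These are descriptions of 10 and 9 peaks.

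Both loci lay apart from other peaks. The Ddah1 peaks spanned 156 kb, of which peaks covered 16.0%, with 123 kb free of peaks before the first and 499 kb after the last. The Dock9 peaks spanned 182 kb, of which peaks covered 15.2%, with 192 kb free of peaks before the first and 103 kb after the last. Between 85.7% and 95.5% of the gaps between neighbouring peaks in the table were shorter than these 4. Inside the loci the median gaps were 13.7 kb at Ddah1 and 10.0 kb at Dock9, against 9.15 kb over the table.

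The peaks nearest to the windows were not called. Before Ddah1, the peak from 145294538 to 145298457 averaged 47.2 ± 4.88 CPM in Gata6KO and 51.2 ± 5.56 CPM in Control libraries (log2 fold change -0.11 ± 0.13, SE), and after it the peak from 146076644 to 146079411 had a log2 fold change of -0.23 ± 0.17 (SE). Before Dock9, the peak from 121821341 to 121823500 averaged 33.7 ± 5.02 CPM in Gata6KO and 28.0 ± 2.16 CPM in Control libraries (0.26 ± 0.16, SE), and after it the peak from 122301252 to 122305121 had a log2 fold change of -0.11 ± 0.14 (SE). Just inside the windows lay the first and last peak of each locus described above.

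Within 500 kb of the Ddah1 window there were 4 peaks, none called, with log2 fold changes of -0.24 to -0.056. Their sum was 118 ± 6.62 CPM in Gata6KO and 131 ± 1.16 CPM in Control libraries. Around Dock9 the neighbourhood was more crowded and mixed. The 49 peaks within 500 kb before the window had a median of -0.076, with 7 called lower and 4 higher. The 14 peaks within 500 kb after it all had log2 fold changes below 0, from -0.84 to -0.029, with a median of -0.30. Of these 14, 5 were called lower and none higher. Their sum was 379.7 ± 7.42 CPM in Gata6KO and 478.5 ± 26.95 CPM in Control libraries. These counts are few, and 10.2% of all peaks were called lower.

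**Figure D4:**
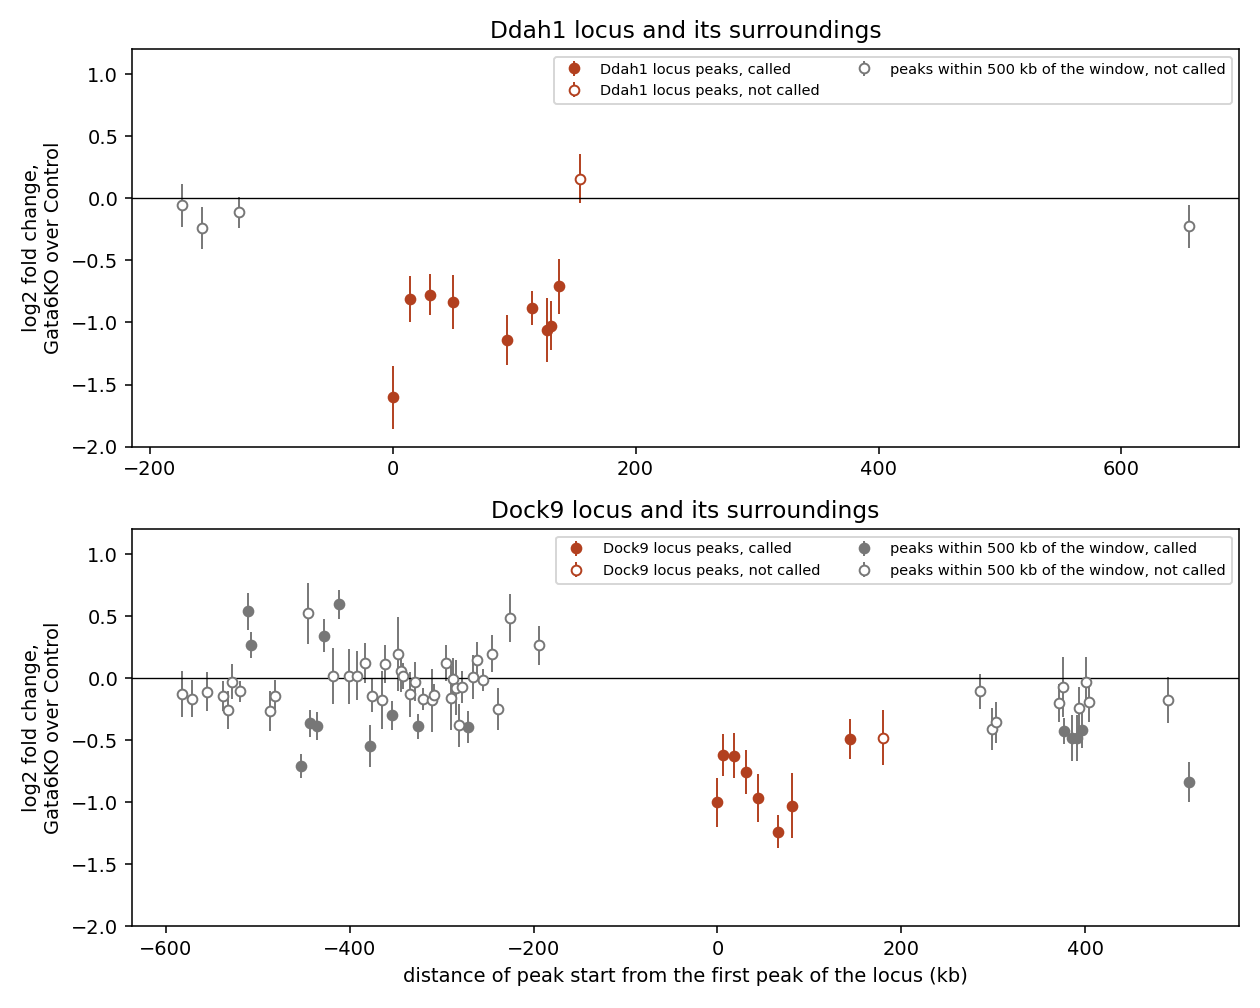
Log2 fold change of Gata6KO over Control with its SE (y axis) for the Ddah1 and Dock9 peaks (red) and all peaks within 500 kb of the windows (grey), by distance from the first peak of the locus in kb (x axis). Filled points were called and open points were not. The peaks of both loci lie between -1.60 and -0.48 except the last Ddah1 peak at 0.16, and those within 500 kb lie between -0.84 and 0.60.

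Among streaks of at least 8 consecutive peaks called lower, the table held 7, of which 3 lay off chromosome 5. That chromosome is set apart because lower calls were uneven across chromosomes. Fitted without it, 1857 peaks were called lower, against 2320 with it. The median log2 fold change was 0.0098 off chromosome 5, against -0.0081 over all peaks. Whether the streaks on chromosome 5 are local was not tested. The first 9 Ddah1 peaks and the first 8 Dock9 peaks are 2 of these 3. The other is a streak of 10 peaks on chromosome 1 from 62750547 to 62831426, with gaps of 1.87 kb at the median, against 13.0 kb in the Ddah1 and 10.00 kb in the Dock9 streak. Its median log2 fold change was -0.63, against -0.88 in the Ddah1 and -0.86 in the Dock9 streak. The streaks on chromosome 5 had medians of -0.81 to -0.63. The one with the most peaks, 18 from 66702813 to 67012228, had a median of -0.81 and a median gap of 8.35 kb. Differences between streaks were not tested because all were found by their decrease.

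Depth limited single peaks more than sums. Counts per member and library were 44 to 350 at Ddah1 and 50 to 443 at Dock9, and 86.0% of them were even, as when both mates of a pair are counted. Taken as pairs, the lowest count at Ddah1 has a counting error of 21.3% and the highest 7.56%, which covers counting alone. Levels are relative to the reads in peaks of each library, which hides any change common to the whole peak set.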

How the data were processed

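The deposited values were raw counts in 1 set of peaks for 6 H3K27ac libraries, with no normalization by the authors. The submitters' processing notes name the mm9 build and the tools SEACR, bedtools, Bowtie, Picard and SAMtools, without versions or roles. Whether peaks were called per library or on pooled reads, and how reads were counted, is not given in the sources used here.

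All 22731 peaks passed edgeR's filterByExpr and were fitted together (edgeR 4.0.16, R 4.3.3: TMM, quasi-likelihood test with group as the only term, Benjamini-Hochberg adjustment, threshold 0.05). The common coefficient of variation between libraries was 11.4%. CPM are counts over TMM-scaled reads in peaks. SE were taken from the F statistic, percentiles and correlations from pandas 2.3.3 and SciPy 1.17.1. The fit was checked on simulated counts. No label ties replicates to separate cultures, so calls rest on a spread between libraries that may be technical.

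The members and lists were chosen with earlier results of these data known. Values in every library were printed for the 4 peaks of each locus with the highest mean level, the 2 with the most negative log2 fold change, and the last peak of each locus, which was added after its values were seen. DESeq2 1.42.0, other scalings and filters, a replicate block, halved counts and leaving out each library were tried. The GRCm38.p6 gene table served for names and neighbours (both genes matched). The sequences before the starts, their strands and the CG and GATA counts came from RefSeq on the same build.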

Additional observations from a re-analysis of the deposited data

How the results depend on the processing

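All 304 values of single members under the 16 other settings kept their direction. The log2 ratio of the locus sums was -0.87 to -0.81 at Ddah1 and -0.88 to -0.79 at Dock9 with each library left out, and those fits called 8 to 9 and 7 to 8 peaks lower, and 1741 to 1996 in the whole table. The calls that were lost were at the 3 Dock9 peaks and the 1 Ddah1 peak named above for this, each without 1 or either of 2 libraries. With other scaling factors, trended offsets, DESeq2, other filters (2 settings, 1 of which removed no peak), halved counts or chromosome 5 left out, 9 and 8 were called, as with the replicate block, under which 2409 peaks of the table were called lower. The labels do not say that numbers pair libraries: deviations of same-numbered libraries correlated at 0.0059 to 0.067, and those of others at -0.049 to 0.040. At an adjusted p under 0.01, 8 Ddah1 and 7 Dock9 peaks and 1478 of all peaks were called lower, fewer by construction. Summed over the peaks called lower alone, the Ddah1 log2 ratio was -0.95, since this leaves out the peak that did not fall.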
